A study of Mus musculus with 2 samples.

Results

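Mural cells wrap the small vessels of the brain. In single-cell RNA libraries of mouse hippocampus, 201 of 14560 barcodes that passed quality limits met a rule for pericytes and other mural cells, 96 of 6435 in the WT library and 105 of 8125 in the 60TM library. A barcode is the tag of 1 droplet, which usually holds 1 cell, and a UMI (unique molecular identifier) is 1 counted RNA molecule. Members were chosen by their own RNA levels: the rule took barcodes with 500 or more genes and a mitochondrial share up to 15%, and a UMI of at least 3 of 10 genes (Vtn, Kcnj8, Abcc9, Higd1b, Ndufa4l2, Rgs5, Atp13a5, Acta2, Tagln and Myh11). It also asked for at most 5 UMIs of Slc1a2, an astrocyte glutamate transporter, and at most 1 UMI of P2ry12, a microglial purine receptor. Barcodes that met all of this are called members. The levels of these 12 genes chose the members and are given as a description.

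Both groups were 7-week-old mice on the C57BL6/J background. WT mice carried no transgene by their label, and 60TM mice carried a human GFAP transgene (labelled GFAP-hGFAP) and stand for Alexander disease, in which astrocytes accumulate GFAP. After perfusion, hippocampi were dissociated with papain, and each genotype gave 1 droplet library (10x Genomics 3′ chemistry) pooled from 3 mice. Which mouse a barcode came from was not used here, so no difference between genotypes could be tested. Intervals below are exact 95% intervals that cover counting error only, and they say nothing about the spread between animals. Human and mouse GFAP transcripts were not separated here.

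Pericytes lie within the capillary basement membrane, which they share with endothelial cells, and vascular smooth muscle cells ring arterioles. Endothelial PDGF-B draws mural cells to vessels through the receptor Pdgfrb, and Notch3 maintains them. Brain pericytes carry an ATP-sensitive potassium channel made of Kcnj8 and Abcc9, secrete the matrix protein vitronectin (Vtn), and express Rgs5, which shortens G-protein signalling. Smooth muscle cells express contractile proteins, among them the actin Acta2, the actin-binding protein transgelin (Tagln) and the myosin heavy chain Myh11. In the mouse genome (GRCm38) Vtn lies at chr11:78499091-78502324, Rgs5 at chr1:169655501-169695813 and Acta2 at chr19:34241090-34255590, all protein coding.

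The quality barcodes had medians of 7481 UMIs in WT and 7666 in 60TM. Members had medians of 4350.5 and 4552 UMIs, with ranges of 778 to 29919 and 641 to 42416. The libraries shared 20 barcode sequences, none of them in a member. Scrublet, a doublet caller, marked 8 WT and 7 60TM members, which were kept in the main values. As a background, at least 3 of the 10 rule genes had a UMI in 8 of 2259 WT microglia (0.354%) and 8 of 2661 60TM microglia (0.301%), the reference barcodes chosen by microglial marker genes with at least 5 UMIs each. Their median depths were 5854 and 7228 UMIs. Free RNA and mixed droplets were not told apart in these barcodes.

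Most members carried far more of the rule genes than the rule required. The median member held 7 of the 10 in both libraries, with 51 WT and 47 60TM members at exactly 7, 10 and 13 at 8, and 1 60TM member at 9. At the threshold, 13 WT and 15 60TM members held exactly 3 rule genes, with medians of 8 and 7 rule-gene UMIs. Just outside it, 63 and 50 barcodes within the same limits held exactly 2, with medians of 11 and 6 such UMIs. By the marker lists described below, ependymal genes led in 23 WT and 3 60TM of these barcodes. Endothelial genes led in 16 and 20 of them, and mural genes in 2 and 1. On the Slc1a2 side, 8 and 11 members held 4 or 5 UMIs, and 4 and 9 barcodes that met every other limit held 6 or 7. For P2ry12, 5 members in each library had 1 UMI, while 0 WT barcodes and 1 60TM barcode were kept out by holding 2.

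**Figure D1:**
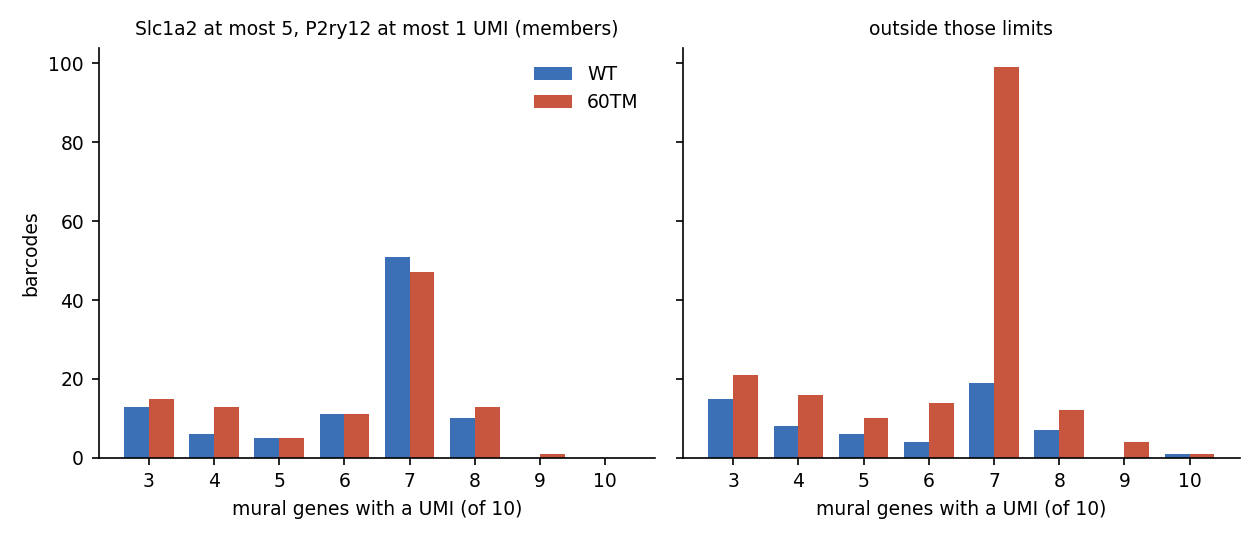
Number of barcodes (y axis) by how many of the 10 mural genes had a UMI (x axis, from 3), for members (left) and for barcodes kept out by the Slc1a2 or P2ry12 limit (right), WT in blue and 60TM in red. Members peak at 7 genes in both libraries (51 and 47 barcodes), and the tallest bar outside the limits is 60TM at 7 genes (99 barcodes, against 19 in WT).

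The label was checked first against a gene the rule did not use. Pdgfrb, the receptor through which mural cells are recruited, had a UMI in 82 of 96 WT members and 76 of 105 60TM members. In the microglia it had one in 1.59% and 1.80% of barcodes. Members were then set beside 6 marker genes of each of 11 cell classes, counting genes with 2 or more UMIs. The mural list led or tied for the lead in 77 WT and 73 60TM members, and the endothelial list led in 14 and 24. Ties were counted under the mural list here and below. The other leaders in WT were ependymal genes in 3 members and neuronal genes in 2. In 60TM they were fibroblast genes in 4 members and astrocyte, border macrophage, oligodendrocyte precursor or choroid plexus genes in 1 each. The name mural matches the leading or tied genes of most members and goes against those of the others. Because the rule chose members by mural genes, the lead of the mural list follows in part from that choice and is a description.

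Endothelial genes were the main companion of the mural genes. At least 2 of Cldn5 (a tight junction protein), Flt1 (a VEGF receptor) and Pecam1 (a junctional adhesion molecule) had a UMI in 33 of 96 WT members (34.4%, interval 24.98 to 44.8%). In 60TM they did in 56 of 105 (53.3%, interval 43.3 to 63.1%). In the microglia the same held for 0.664% and 0.939%. All 3 endothelial genes were present in 24 WT and 49 60TM members. The share was higher among deep barcodes of both libraries: in WT it was 6.25% of 16 members under 2000 UMIs, 7.50% of 40 between 2000 and 5000, 73.7% of 19 between 5000 and 10000, and 71.4% of 21 above that. The 60TM shares in the same order were 28.0% of 25, 22.6% of 31, 88.9% of 18 and 83.9% of 31. With each cell thinned to 2000 UMIs and the present members of sufficient depth kept, the share was 38.8% of 80 WT members and 57.5% of 80 60TM members, leaving out 16 and 25. Members with 2 endothelial genes had medians of 8714 and 9152.5 UMIs. Scrublet marked 3 of these 33 WT members and 4 of these 56 60TM members. Whether such a barcode held 1 cell, a pair of cells or a vessel fragment was not tested.

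**Figure D2:**
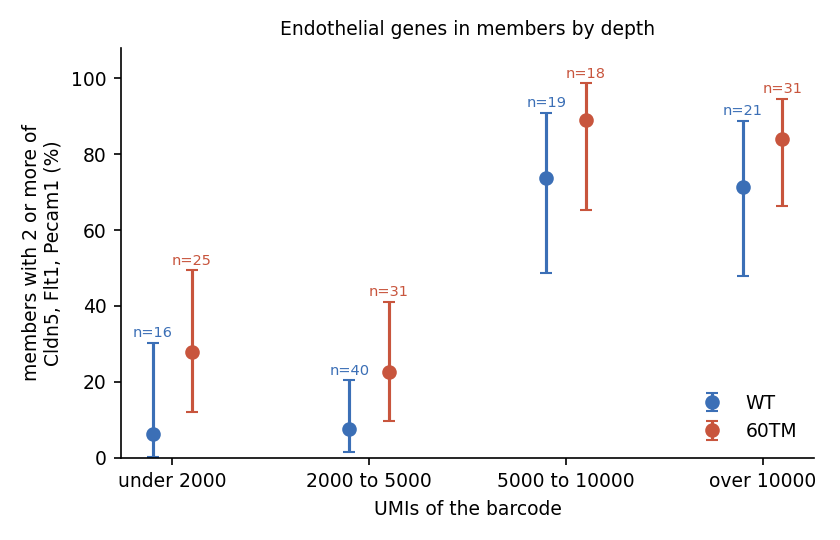
Share of members with a UMI of 2 or more of Cldn5, Flt1 and Pecam1 (y axis, %) by UMIs of the barcode (x axis), WT in blue and 60TM in red, with exact 95% intervals and the number of members above each point. In both libraries the points above 5000 UMIs lie over 70%, and those below lie at 28.0% or less.

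The share of mural barcodes in the 2 genotypes depended on which barcodes were admitted. Members were 1.49% of WT (interval 1.21 to 1.82%) and 1.29% of 60TM quality barcodes (1.06 to 1.56%), a ratio of 0.866 (0.651 to 1.15) that includes 1. Outside the Slc1a2 and P2ry12 limits lay another 60 WT barcodes (0.932%, 0.712 to 1.20%) and 177 60TM barcodes (2.18%, 1.87 to 2.52%) with at least 3 rule genes, a ratio of 2.34 (1.73 to 3.19). With both sets joined the shares were 2.42% and 3.47%, and the ratio turned to 1.43 (1.17 to 1.75). The direction between genotypes thus reversed with the limits. Barcodes without 2 endothelial genes numbered 63 in WT and 49 in 60TM, a ratio of 0.616 (0.415 to 0.909), and those with them 33 and 56, a ratio of 1.34 (0.859 to 2.13). Endothelial barcodes with fewer than 3 rule genes, the closest neighbours, were 1.48% and 1.43% of the libraries within the same Slc1a2 and P2ry12 limits, a ratio of 0.967 (0.731 to 1.28). Without the limits they were 2.22% and 2.40%, a ratio of 1.08 (0.866 to 1.35), so here too the direction turned, with both intervals including 1. The number of mural cells in the tissue and their recovery in dissociation cannot be told apart here.

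The Slc1a2 limit kept out a different part of each library. Of barcodes with 3 or more rule genes, 34.6% of 156 in WT and 60.6% of 282 in 60TM had over 5 Slc1a2 UMIs. Over all quality barcodes these shares were 24.6% and 36.1%, and in the 143 WT and 195 60TM endothelial barcodes with fewer than 3 rule genes 25.2% and 30.3%. Most of the barcodes left out also carried endothelial genes, 44 of 60 in WT and 151 of 177 in 60TM, and they were deep, with medians of 14983.5 and 14547 UMIs. Scrublet marked 28.3% of them in WT and 25.99% in 60TM. A combination of mural, endothelial and Slc1a2 UMIs stood in 42 of the 156 WT barcodes (26.9%, interval 20.1 to 34.6%) and in 147 of the 282 60TM barcodes (52.1%, 46.1 to 58.1%). These barcodes held much of the mural RNA: 27.4% of all Vtn UMIs in WT and 63.0% in 60TM lay outside the limits. Core members, defined below, held 44.5% and 12.5%, and the other members 19.3% and 17.8%. The part of doublets in this was not tested.

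Among the members, most were of pericyte type in both libraries. A member was of smooth muscle type with a UMI of at least 2 of Acta2, Tagln and Myh11. It was of pericyte type with fewer of these and at least 2 of Vtn, Kcnj8, Abcc9, Higd1b, Ndufa4l2 and Atp13a5. Pericyte type were 83 of 96 WT members (86.5%, interval 78.0 to 92.6%) and 93 of 105 60TM members (88.6%, 80.9 to 93.95%). Smooth muscle type were 9 (9.38%, 4.38 to 17.1%) and 10 (9.52%, 4.66 to 16.8%), and 4 and 2 were neither. Of the pericyte type, 57 WT and 53 60TM members held a UMI of each of the 6 pericyte genes. The intervals of the smooth muscle shares overlap.

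The smooth muscle type was a mixed group, and in WT part of it was not mural. Of its 9 WT members, 3 had ependymal genes in the lead, and these 3 held 4, 17 and 44 UMIs of Acta2, 1, 1 and 2 of Tagln and none of Myh11. Another 2 were led by endothelial genes and 4 by mural genes. None of the 10 in 60TM was led by ependymal genes, 6 were led by mural, 3 by endothelial and 1 by astrocyte genes. A Myh11 UMI was present in 5 of 9 and 7 of 10. With the type set by more smooth muscle than pericyte UMIs, 6 WT members (3 of them the ependymal-led ones) and 4 60TM members counted as smooth muscle, 6.25% and 3.81%. The clearest smooth muscle barcode was in 60TM and held 57 Acta2, 40 Tagln and 4 Myh11 UMIs beside 21 UMIs of the 6 pericyte genes, among 2728 in all.

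**Figure D3:**
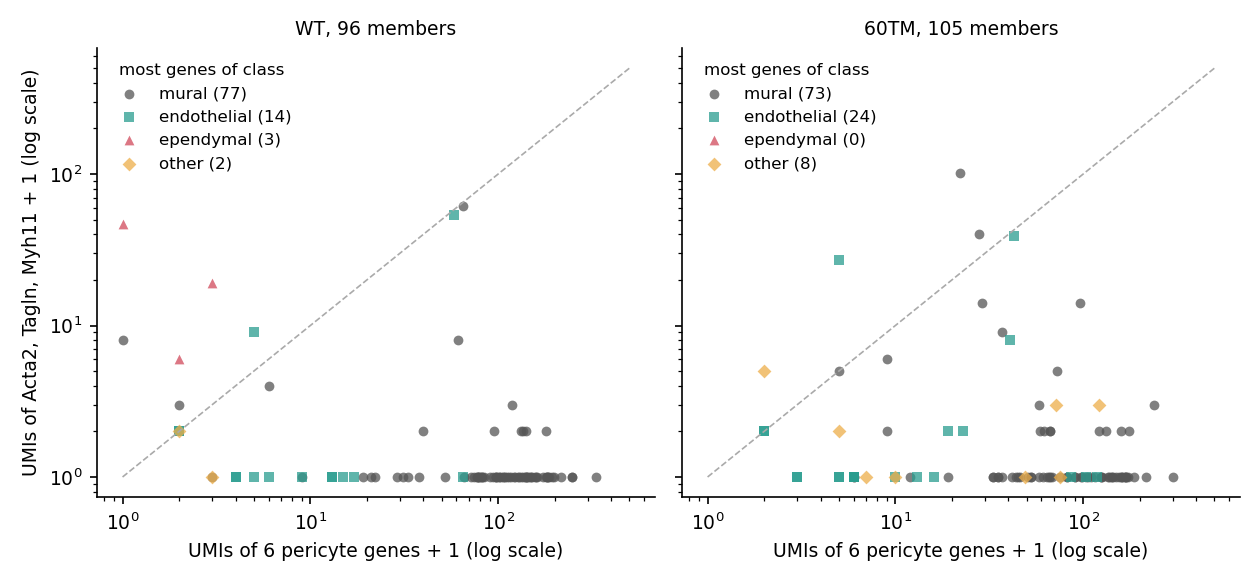
Each point is 1 member, with UMIs of the 6 pericyte genes plus 1 (x axis, log scale) against UMIs of Acta2, Tagln and Myh11 plus 1 (y axis, log scale), WT on the left and 60TM on the right, with colour and shape for the class whose genes lead. Above the dashed line of equality lie 6 WT members, 3 of them ependymal-led, and 4 60TM members.

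Acta2 was not a mural marker on its own in these libraries. Ependymal cells line the ventricles and beat cilia. Barcodes with at least 5 of 6 ependymal genes, 112 in WT and 27 in 60TM, held 86.7% of the 1966 Acta2 UMIs of WT quality barcodes and 56.5% of the 549 in 60TM. Core members held 0.305% and 17.1%, and other members 6.87% and 8.38%, which includes 3 WT barcodes that are ependymal by these genes. Of these ependymal barcodes 87.5% and 85.2% had an Acta2 UMI, at medians of 15517.5 and 15753 UMIs, while Acta2 had a UMI in 1.37% of WT and 0.413% of 60TM microglia. Myh11 had 1 UMI in the ependymal barcodes of each library.

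Stretches before the RefSeq starts of Acta2 and of the myosin light chain Myl9 are shown because both genes encode contractile proteins of the smooth muscle list. They come from RefSeq (GRCm38.p6), whose table held 6 of the 10 rule genes, and are printed 5′ to 3′ on the gene's strand. The Acta2 stretches lie at chr19:34255438-34255467 and chr19:34255388-34255417 (minus strand), inside the first exon and 5′ untranslated region of the GENCODE M21 model, which starts further upstream. The Myl9 stretch lies at chr2:156775283-156775372 (plus strand), outside genes in that annotation. Capitals mark the CArG box, the element bound by serum response factor (exact in Myl9, 1 letter off in Acta2).
Acta2, distal: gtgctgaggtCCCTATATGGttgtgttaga
Acta2, proximal: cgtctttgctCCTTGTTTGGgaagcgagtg
Myl9: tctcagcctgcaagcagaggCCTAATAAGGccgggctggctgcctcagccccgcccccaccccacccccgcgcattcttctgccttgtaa
Serum response factor is known to drive contractile genes through such elements. On either strand, CCCTATATGG was in 9 of 32851 promoter windows of 300 bases (0.0274%), CCTTGTTTGG in 26 (0.0791%) and CCTAATAAGG in 17 (0.0517%). An exact CArG box was in 535 windows (1.63%), and the Acta2 window held none. Windows with a box 1 letter off, as in Acta2, were not counted, so these shares do not give how common such a box is. A match describes the letters only.

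Comparisons of gene levels used a core of members with fewer than 2 endothelial genes in which no other class had more genes than the mural list, 58 WT barcodes (222441 UMIs) and 41 60TM barcodes (135888 UMIs). Levels are CPM, UMIs per 1000000 UMIs of the summed barcodes, and compare 1 gene between groups, not genes with each other. Core depth was lower in 60TM, with medians of 3028.5 and 2070 UMIs. Pecam1 had 0 UMIs in both cores, Cldn5 had 4 and 0, and Flt1 13 and 5.

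The core held 3 WT and 5 60TM barcodes of smooth muscle type (5491 and 10040 UMIs), and the name fits them only in part. In WT they summed to 65 UMIs of the 6 pericyte genes against 17 of Acta2, Tagln and Myh11, and in 60TM to 116 against 165. With the type set by UMIs, 2 core barcodes in each library were smooth muscle. Outside the rule genes, 15 of 1318 genes (1.14%) were at least 3-fold higher in the smooth muscle type than in the pericyte type of the same library in both libraries, and 4 (0.303%) at least 3-fold lower. At 2-fold these were 49 (3.72%) and 16 (1.21%). Wtip, a LIM domain protein, was 6.92-fold higher in WT (interval 1.30 to 23.9, on 3 smooth muscle UMIs) and 26.3-fold in 60TM (11.9 to 62.6). The tropomyosin Tpm1 was 4.97-fold higher in WT (interval 2.18 to 9.98) and 16.0-fold in 60TM (9.57 to 27.0). The myosin light chain kinase Mylk was 4.43-fold (1.71 to 9.67) and 4.48-fold (1.94 to 9.49) higher, and the calcium pump Atp2a2 3.63-fold (1.13 to 9.01) and 4.36-fold (1.69 to 10.1). Timp3, a metalloproteinase inhibitor, was 23.5-fold (11.5 to 46.4) and 5.42-fold (2.82 to 9.99) higher. Pdgfa, a platelet-derived growth factor, was 6.27-fold (1.59 to 18.2, on 4 smooth muscle UMIs) and 6.96-fold (2.87 to 15.9) higher. The first 10 by the smaller of the 2 ratios also held Crim1, the ribosomal protein gene Rpl22l1, AY036118 and the transcriptional regulator Id3, between 3.71-fold and 6.27-fold higher. The intermediate filament desmin (Des) held 4 and 7 UMIs in smooth muscle barcodes against 17 and 12 in the pericytes, ratios of 9.22 (2.26 to 28.3) and 7.31 (2.44 to 20.1). Myl9 and the light chain Myl6 were 4.23-fold and 3.96-fold higher in 60TM, while in WT both intervals included 1. Caldesmon (Cald1) was no higher in smooth muscle barcodes, with ratios of 0.560 and 0.876 whose intervals include 1. The genes higher in pericyte barcodes included Cd9, Mal and Qk, which are myelin or oligodendrocyte genes.

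A few deep barcodes inside the core carried oligodendrocyte genes. In 60TM, 1 core barcode of 42416 UMIs, 31.2% of the core's total, held all 6 oligodendrocyte marker genes beside 8 rule genes. In WT, 2 barcodes of 15495 and 16438 UMIs held 6 oligodendrocyte genes. A WT barcode of 25243 UMIs held 4 oligodendrocyte precursor genes, and 1 of 2498 UMIs held 3 fibroblast genes. Scrublet marked these 3 deep WT barcodes but not the 60TM one. All were in the core because their mural genes were at least as many. Without the 5 barcodes, a step chosen after seeing the data, the stricter core held 54 WT barcodes (162767 UMIs) and 40 60TM barcodes (93472 UMIs).

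Beside the rule genes, these mural barcodes shared a set of genes that were scarce elsewhere. Against barcodes with fewer than 3 rule genes, 872 genes reached 50 UMIs with 10 in each library, and 47 of them (5.39%) had a level 100-fold or more above it in the stricter core of both libraries. Since the rule chose the barcodes, this is a description. Nodal, a TGF-beta family ligand, was at 289 CPM (WT) and 299.6 CPM (60TM), against 0.0329 and 0.00 CPM in the other barcodes. The proteoglycan asporin (Aspn) was at 608 and 374 CPM, and the transporter Slc38a11 at 418 and 278 CPM. The angiotensin-processing peptidase Enpep (405 and 385 CPM) was in the set. So were the thromboxane receptor Tbxa2r (485 and 642 CPM), the connexin Gja4 (547 and 631 CPM), endosialin (Cd248, 676 and 631 CPM) and the parathyroid hormone receptor Pth1r (651 and 663 CPM). In endothelial barcodes none of these was above 23.1 CPM. A UMI was seen in 38.9% (Nodal) to 70.4% (Pth1r) of WT barcodes of the stricter core.

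Over all core genes, the higher side of the genotype contrast rested largely on single barcodes. Few of the lower genes rested on 1 barcode each, but their number and share also fell in the stricter core. Counting genes that reached 50 UMIs, 73 of 1329 (5.49%) were 2-fold or more above WT in 60TM and 42 (3.16%) were below by as much, with a median log2 ratio of -0.12 over all of them. Over all members these were 95 (1.86%) and 87 (1.7%) of 5116 genes. For 65 of the 73 higher genes 1 barcode held over 50% of the 60TM UMIs of the gene, and for 56 of them it was the barcode of 42416 UMIs. For 6 of the 42 lower genes 1 barcode held over 50% of the WT UMIs. The myelin genes Mobp, Mag and Nfasc, with ratios of 14.9, 9.09 and 13.3, had 99.1%, 99.0% and 99.4% of their 60TM UMIs in that barcode. Without that barcode their ratios turned to 0.190, 0.129 and 0.125, and 33 genes were higher and 48 lower. In the stricter core 24 of 884 genes (2.71%) were at least 2-fold higher and 9 (1.02%) lower. Even there the metallothioneins Mt1, Mt2 and Mt3, metal-binding stress proteins with ratios of 31.3, 53.4 and 11.8, had 93.4%, 91.3% and 93.4% of their 60TM UMIs in 1 barcode each. Gfap had 27 UMIs in 60TM, 92.6% of them in 1 barcode, against 1 in WT.

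Of the genes ranked first in the core, few were spread over many barcodes. On the lower side these included Atp2a3, a calcium pump of the endoplasmic reticulum (86 and 17 UMIs, ratio 0.324, 0.180 to 0.549), Arhgap42, a GTPase-activating protein (74 and 17 UMIs, 0.376, 0.208 to 0.643), and Nop10, a small nucleolar protein (57 and 10 UMIs, 0.287, 0.131 to 0.567). In the stricter core Atp2a3 was seen in 33 of 54 WT and 13 of 40 60TM barcodes with a ratio of 0.344 (0.188 to 0.593), and Arhgap42 in 34 and 10 with 0.398 (0.216 to 0.692). Ggt5, a glutamyl transferase named here after its values were seen, was 2.08-fold higher in 60TM (1.35 to 3.23) and present in 28 of 54 and 29 of 40 barcodes.

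Rgs5, one of the 10 genes that chose the members, was lower in the 60TM core, and the difference did not rest on single barcodes. Its core sum was 1382 UMIs in WT (6213 CPM, interval 5890 to 6549) against 430 in 60TM (3164 CPM, 2872 to 3478), giving a ratio of 0.509 (0.456 to 0.568). Per barcode the median was 6658 CPM in 58 WT barcodes (lowest 0, highest 18044) and 3578 CPM in 41 60TM barcodes (lowest 0, highest 11505). The ranges overlap, and the upper quartile of 60TM (5952 CPM) lies below the WT median. No barcode held over 7.44% of its UMIs in either library, and Rgs5 had a UMI in 55 of 58 and 39 of 41. In the stricter core the ratio was 0.568 (0.507 to 0.636), and with every barcode weighted equally there 0.596.

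The other pericyte genes of the rule stayed closer to equal. In the stricter core the ratio was 1.02 for Vtn (22757 and 23237 CPM, interval 0.968 to 1.08), 1.003 for Kcnj8 (0.826 to 1.21) and 1.07 for Abcc9 (0.813 to 1.41). It was 1.05 for the mitochondrial subunit homologue Ndufa4l2 (0.872 to 1.26) and 0.886 for the transport ATPase Atp13a5 (0.719 to 1.09). Vtn was at 0.839 in the core and 1.02 in the stricter core, so its direction depended on the 5 barcodes. Higd1b, a protein of the HIG1 hypoxia-inducible domain family, was at 0.765 (0.640 to 0.912) and Pdgfrb at 0.762 (0.619 to 0.935). Kcnj8 had medians of 1529 and 1476 CPM per core barcode, and Higd1b 2242 and 1675 CPM, with wide overlap.

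**Figure D4:**
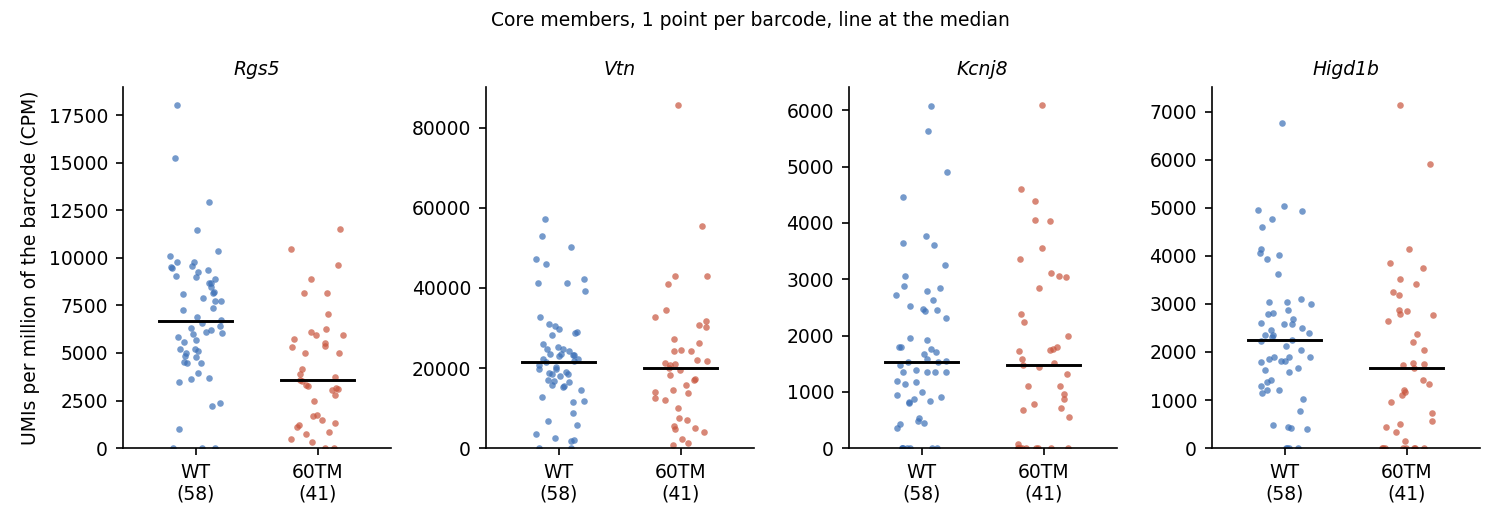
Level per core barcode in CPM (y axis) of Rgs5, Vtn, Kcnj8 and Higd1b in 58 WT and 41 60TM barcodes (x axis), 1 point each, with a black line at the median. The medians of Rgs5 are 6658 and 3578 CPM, and those of Kcnj8 1529 and 1476 CPM.

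Smooth muscle genes went the other way in the core, on few barcodes. Acta2 stood at 6 UMIs over 3 WT core barcodes and 94 over 5 60TM core barcodes, Tagln at 11 in 4 and 67 in 7, and Myh11 at 8 in 6 and 19 in 10. The ratios were 25.6 (11.4 to 71.7), 9.97 (5.23 to 20.9) and 3.89 (1.63 to 10.3). One 60TM barcode held 60.6% of the Acta2 and 59.7% of the Tagln UMIs. Over all members Acta2 was at 223 and 177 CPM, a ratio of 0.793 (0.623 to 1.01), so its direction reversed with the barcodes used. The WT members include 3 ependymal barcodes, which held part of their 141 Acta2 UMIs, and the 60TM members include none. The reversal over all members therefore does not describe mural barcodes alone. It was not limited to ependymal barcodes either. Members with 2 or more endothelial genes included 0 led by ependymal genes. There Acta2 had 69 WT and 44 60TM UMIs, a ratio of 0.388 (0.260 to 0.575). In the same members Tagln was at 0.348 (0.201 to 0.588) and Myh11 at 1.10 (0.562 to 2.22). Acta2, Tagln and Myh11 are rule genes and set the smooth muscle type, which was 3 of 58 core barcodes in WT and 5 of 41 in 60TM. In the barcodes outside the limits Acta2 was at 321 and 29.6 CPM. That set holds 7 WT and 3 60TM of the ependymal barcodes described above, so these levels are not those of mural cells alone.

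Fixed gene lists were read in the same way, counting list genes with at least 20 UMIs whose ratio was past 1.5. Over all 3594 genes at that depth in the core, 15.6% were past 1.5 upward and 20.2% downward, with a median log2 ratio of -0.08. In the stricter core this was 13.5% and 16.4% of 2582 genes, with a median of -0.03. Counts below are from the stricter core and are to be read against those shares. The lists were chosen with earlier results of these data known.

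Of 16 pericyte markers 1 was higher and 1 lower, with a median log2 ratio of -0.14 (core 1 and 3, -0.30). The lower one was Rgs5. The higher one was the GABA and taurine transporter Slc6a13 (13 and 19 UMIs), which fibroblasts also express. Of 13 smooth muscle contractile genes 6 were higher and 0 lower, with a median of 0.31 (core 4 and 0, 0.06), but this turned with the barcodes and genes counted. The rule genes Acta2, Tagln and Myh11 are 3 of the 6, and without them 3 of 10 were higher (median 0.06). With the smooth muscle type also left out, 0 of 10 were higher and 1 lower (median -0.09; 51 and 35 barcodes), a check chosen after seeing the data. The 3 others were Des (1.65, 0.817 to 3.32), Tpm1 (1.69, interval 1.18 to 2.42) and Tpm2 (2.72, 1.396 to 5.45) in the whole stricter core, where Myl9 was at 0.990.

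Of 15 vasoactive receptors and effectors, 2 were higher and 4 lower, with a median log2 ratio of -0.22 (core 2 and 6, -0.52). Gucy1b1, the beta subunit of the nitric oxide receptor guanylate cyclase, was counted at 181 UMIs in WT against 56 in 60TM (1112 and 599 CPM), a ratio of 0.539 (0.392 to 0.731). Its partner subunit Gucy1a1 was at 0.727 (0.484 to 1.07), and Pde5a, which breaks down their product cyclic GMP, at 0.486 (0.233 to 0.938). Adora2a, an adenosine receptor, was higher at 2.46 (1.27 to 4.88) on 17 and 24 UMIs. Gucy1b1 had a UMI in 45 of 54 WT and 30 of 40 60TM barcodes.

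Of 24 basement membrane and matrix genes, 5 were higher and 1 lower, with a median of 0.00 (core 4 and 4, -0.14). The type IV collagen chain Col4a1 was lower, at 1235 and 749 CPM, a ratio of 0.606 (0.455 to 0.7998). Timp3 was higher at 2.26 (1.47 to 3.51), the collagen chaperone Serpinh1 at 1.53 (1.12 to 2.09), and the sialomucin endomucin (Emcn), usually an endothelial gene, at 2.95 (1.72 to 5.18). Igfbp7, an abundant secreted binding protein, was at 5726 and 6558 CPM, a ratio of 1.15 (1.03 to 1.27) that was 0.991 in the core. The laminin chain Lamc1 was at 0.997 (0.720 to 1.37) and the integrin Itgb1 at 1.001 (0.775 to 1.29).

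Of 14 genes of pericyte recruitment signalling, 3 were higher and 4 lower (median -0.33; core 2 of 16 and 5, -0.54). Notch3 was at 0.740 (0.528 to 1.03), its target Heyl at 0.771 (0.471 to 1.23), and the related target Hes1 at 0.616 (0.389 to 0.951). Of 12 mural transcription factors 2 were higher and 2 lower (median -0.24; core 2 of 13 and 5, -0.38). Ebf1 was lower at 0.653 (0.459 to 0.917), and Foxd1, known from pericyte progenitors, higher at 1.77 (1.19 to 2.64), with a UMI in 31 of 54 and 27 of 40 barcodes. Cebpd, a transcription factor of acute phase responses, was at 4.47 (2.72 to 7.58), and 61.0% of its 60TM UMIs stood in 1 barcode. Of 18 transporters and channels 1 was higher and 3 lower (median 0.06), with no interval leaving out 1 among those counted.

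Inflammatory genes gave little in the core. Of 7 chemokine, cytokine and adhesion genes with enough UMIs 2 were higher and 3 lower, and of 4 interferon response genes none was past 1.5. The chemokine Ccl19 had 34 UMIs in 2 WT barcodes and 1 in 60TM. Of 30 genes on the first list, 16 were at 0 in WT and 12 in 60TM. Lcn2, the iron-carrier protein lipocalin 2, was absent from the WT core and reached 6 UMIs in 60TM, in 3 barcodes, and Ccl2 had 0 and 5, all in 1 barcode. The 60TM microglia held Lcn2 at 66.0 CPM against 0.251 in WT. Lcn2 in the 60TM core was at 44.2 CPM. Cxcl10, an interferon-induced chemokine, had 0 and 2 UMIs in the core, in 1 barcode, and 0 and 162 over all members, in 5 of 105 with 96.9% of them in 1.

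Lists for other cell types, read in the stricter core, did not all go one way. Ttr, the transport protein of the choroid plexus, was at 43.0 CPM in WT, in 6 of 54 barcodes of the stricter core, against 845 CPM in 60TM, in 34 of 40. Its level in microglia was 31.3 and 1188 CPM. The 8 choroid plexus genes summed to 61.4 and 931 CPM, with 5 of 8 at 0 in WT and 6 of 8 in 60TM. Fibroblast genes summed to 2322 and 3712 CPM with 2 of 10 at 0 in each, and of 5 with enough UMIs 4 were higher, among them the calcification inhibitor Mgp (260 and 247 UMIs, ratio 1.65, 1.38 to 1.98). Endothelial genes summed to 1014 and 1327 CPM, with 3 and 7 of 18 at 0. Astrocyte genes summed to 313 and 706 CPM, with 1 and 4 of 10 at 0, but 51 of the 66 UMIs in 60TM stood in 1 barcode. Without the barcode richest in them in each library the sums turned to 258 and 171 CPM. Oligodendrocyte genes summed to 817 and 738 CPM and neuronal genes to 491.5 and 449 CPM, with none of 10 and 4 of 10 at 0 in each. Ependymal genes summed to 707 and 909 CPM, with 5 and 7 of 8 at 0. Their part in the differences above was not tested.

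The level of a gene can also be read per UMI of the 6 pericyte genes in the same barcodes. RNA of other cells in a mixed barcode can still add to the gene and not to this denominator, so levels are not compared between sets. This was done in 3 sets that share no barcode: the stricter core, members with 2 or more endothelial genes, and barcodes outside the limits. All 3 come from the same libraries and are not replicates of the genotypes. They held 5161, 2738 and 3874 pericyte-gene UMIs in WT and 2949, 4283 and 16298 in 60TM. Of 79 list genes at least 10-fold enriched in mural barcodes, 14 were below 1 in all 3 sets and 12 above. These counts ignore the intervals and have no share over all genes beside them, so they are a description. The interval lay below 1 in all 3 sets for 1 gene (1.27%) and above for 1 (1.27%). The gene below 1 is a rule gene and the denominator holds 6 further ones, so its values are a description.

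The gene below 1 was Rgs5. Per 100 pericyte-gene UMIs it had 24.3 UMIs in WT and 13.9 in 60TM in the stricter core, a ratio of 0.571 (0.510 to 0.639). In members with endothelial genes it had 54.1 and 45.5, a ratio of 0.841 (0.785 to 0.900), and outside the limits 63.6 and 46.3, a ratio of 0.729 (0.696 to 0.763). Endothelial barcodes with fewer than 3 rule genes also held Rgs5, with 843 CPM against 523 CPM, or 0.621 (0.534 to 0.722). They held Vtn at 43.9 and 12.5 CPM, and microglia held Rgs5 at 14.04 and 15.8 CPM. How much of the Rgs5 in the mixed barcodes came from endothelial RNA was not tested.

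The gene above 1 in all 3 sets was Ccn2, a matricellular growth factor, with 8 WT and 13 60TM UMIs in the stricter core, a ratio of 2.84 (1.09 to 7.92), and ratios of 4.62 and 11.03 in the other sets. In microglia its ratio was 27.8. Foxd1 was above 1 in every set (1.78, 1.32 and 1.24), though only the first interval left out 1. Ifitm1, an interferon-induced membrane protein, was at 1.14, 1.92 and 1.55, the first with an interval of 0.929 to 1.39. Genes that were lower in the core did not all hold across the sets: Gucy1b1 was at 0.541, 1.09 and 0.928, Col4a1 at 0.609, 1.02 and 0.785, and Pdgfrb at 0.766, 1.12 and 0.863. Differences between the sets were not tested.

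**Figure D5:**
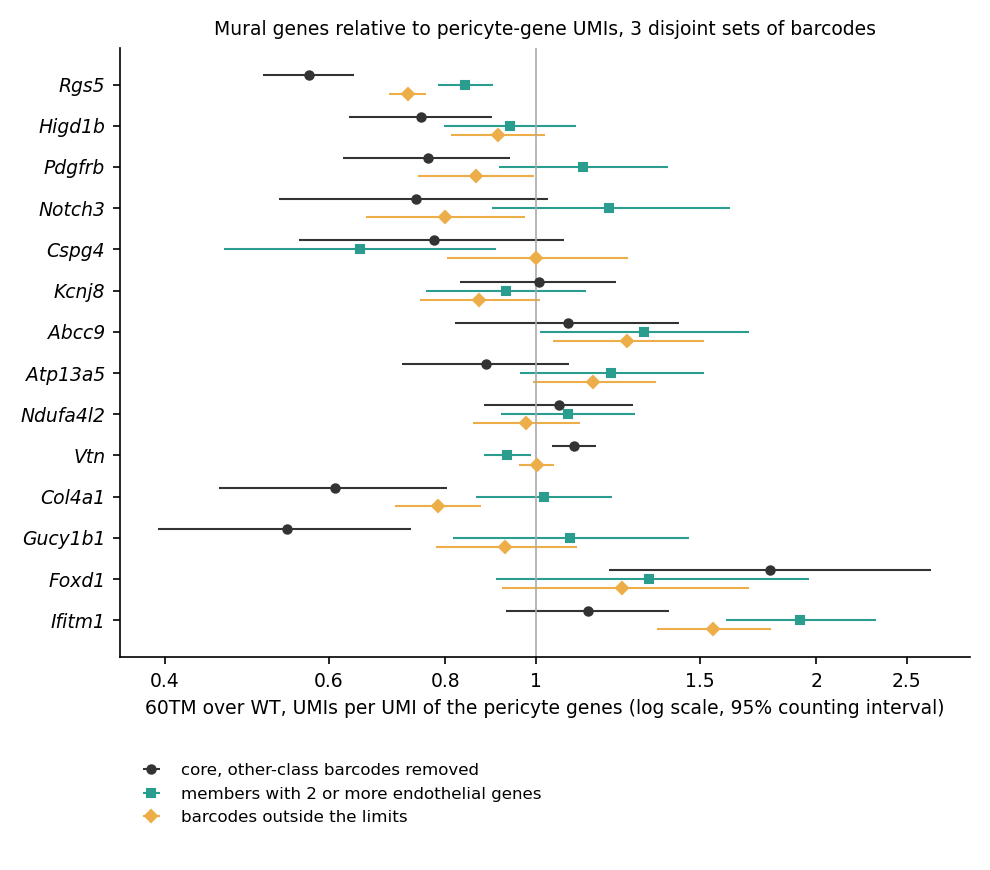
Ratio of 60TM over WT in UMIs per UMI of the pericyte genes (x axis, log scale, with 95% counting intervals) for 14 mural genes (y axis) in 3 sets of barcodes that share none, shown by colour and shape; for a gene that is itself 1 of the 6 it is left out of the denominator. Rgs5 lies left of 1 in all 3 sets (0.571, 0.841 and 0.729), while Col4a1 and Gucy1b1 lie left of 1 in the stricter core and close to 1 in members with endothelial genes.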

How the data were processed

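Hippocampal cells of WT and 60TM mice were measured in 1 library per genotype. The deposited matrices hold raw UMI counts per gene and barcode, made with Cell Ranger 5.0.0 on build GRCm38 per the submitters' processing notes, with no normalization by the authors. Gene and barcode lists, as deposited, carry identifiers and no measured value (unit: other). The annotation release and intron counting are not given in the sources used here. From the counts, members were selected, sums over barcodes were made in each library and expressed as CPM, and ratios were given with exact conditional-binomial, Poisson or Clopper-Pearson 95% intervals (Python 3.11.15, scipy 1.17.1). Genes needed 50 UMIs over both libraries, list genes 20, and list medians used log2 of CPM plus 5. Doublets were scored with Scrublet in scanpy 1.11.5, up to 0.8% per 1000 barcodes, which marked 377 WT and 610 60TM barcodes. All were kept in the main values. The ratio code was tested on simulated data.

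The members and lists were chosen with earlier results of these data known. Named genes were the rule genes, fixed markers, the 12 highest and 12 lowest core genes by the interval bound nearest to 1 (those resting on 1 barcode are described as a group), the most abundant list genes past 1.5-fold, and 10 genes each way between types. The stricter core and the dropping of limits, ependymal barcodes or the deepest barcode were alternatives chosen after seeing the data. Other genes were named after their values were seen. Alternatives covered depth, marker number and level, doublets, quality limits, type rule, cells, low counts, scaling and free RNA. Some genes are not reported here.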

Additional observations from a re-analysis of the deposited data

Results flagged for a closer look

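Signal lay in barcodes that the main comparisons leave out. Barcodes with 3 or more rule genes outside the Slc1a2 or P2ry12 limit were 0.932% of WT and 2.18% of 60TM quality barcodes. Of the microglia, 0.354% and 0.301% held 3 or more rule genes. These shares have unlike denominators and depths. The microglia that held them, 8 in each library, lie outside the P2ry12 limit and are part of the barcodes left out, so they are no separate background. Acta2 in WT barcodes with at least 5 of 6 ependymal genes was at 649 CPM, against 8.77 CPM in WT microglia. In 60TM the ependymal barcodes held 468 CPM.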

How the results depend on the processing

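No paired analysis was possible because each genotype has 1 library. The ratio of mural shares kept its direction under marker number, marker level, doublet removal, quality limits and removal of ependymal barcodes (0.842 to 0.923). It was 0.616 without members carrying 2 endothelial genes, and reversed to 1.37 with each cell thinned to 2000 UMIs and to 1.43 with no limit on Slc1a2 and P2ry12 (added after seeing the data). Thinning also loosens the Slc1a2 limit by its construction. The smooth muscle share was 3.40% (thinned) and 3.81% (type by UMIs) in 60TM and 3.75% in WT with genes detected at 2 UMIs. The endothelial gene share was 46.5% and 78.2% thinned, and 49.4% and 73.4% with no limit. Core genes 2-fold higher and lower numbered 9 and 9 thinned, 270 and 276 with at least 20 UMIs, and 36 and 17 with at least 100. Lower genes numbered 87 in all members and 27 with the median ratio set to 1. Added after seeing the data, higher genes numbered 33 without the 60TM barcode with the most UMIs, and the stricter core gave 24 and 9. Genes higher in smooth muscle numbered 49 at 2-fold and 30 in all members (added), those higher in pericytes 16 at 2-fold, 2 with the type by UMIs and 95 in all members.

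Of the ratios of single named genes, 26 values reversed. Thinned: Gpm6b 1.76, Ptgds 1.19, Vtn 1.02. Highest Scrublet scores removed: Fyn 1.11, Gpm6b 1.88, Cd9 13.3, Ptgds 4.50, Trf 3.31. All members: Mt3 0.541, Ptgds 3.75, Acta2 0.793. Mean of each cell's CPM: Ttyh1 0.803, Ptgds 1.49. Without the deepest WT core barcode: Fyn 1.20, Cd9 1.74. Without the deepest 60TM core barcode: Mobp 0.190, Nfasc 0.125, Mag 0.129, Tspan2 0.0418, Vtn 1.20, Atp13a5 1.06. Stricter core: Fyn 1.16, Ptgds 3.595, Tubb2b 1.03, Trf 1.21, Vtn 1.02. The cause was not tested. Core sums of 222441 and 135888 UMIs limit single genes, and 1 library per genotype gives no spread between animals.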
